A study of Mus musculus with 32 samples.

Results

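CTCF is a DNA-binding zinc finger protein whose sites lie mostly away from promoters, where it stops cohesin during loop extrusion and so sets the ends of many chromatin loops and domains. Its central zinc fingers read a conserved core motif, and the outer fingers contact flanking bases at some sites. Distal CTCF sites in mouse embryonic stem (ES) cells are known as loop anchors and insulators, so a distal site and the gene nearest to it need not have a regulatory tie.

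The regions described here are 1182 CTCF peaks of a GC library that stand high in its peak list, lie away from annotated gene starts and have no counterpart in a Del8 library. They were chosen by these measured values out of 26729 GC peaks. A peak qualified when it was in the top 20% of the list in file order, when its centre was more than 1 kb from every gene start of the expression table, and when no Del8 peak overlapped it by at least 1 bp. Of the 4515 distal peaks in the top 20%, the other 3333 overlapped a Del8 peak and are called retained. That file order follows peak strength is an assumption, because every score in the deposited lists has the same value. A lost peak is one that was not called in Del8, and the lists alone do not show that CTCF was absent there.

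All samples were ES cells of mouse strain 129. The Del8 ChIP-seq library came from cells expressing a fusion of green fluorescent protein with CTCF that lacks zinc finger 8, and the GC library came from cells expressing the full-length fusion. RNA-seq covered 8 libraries of 3 d8 lines (the same zinc finger 8 deletion, with 3, 3 and 2 libraries) and 6 libraries of 2 GC lines (3 libraries each). The labels state neither whether endogenous CTCF was removed from these cells nor which line the ChIP-seq cells came from. Both ChIP-seq libraries were made with a homemade polyclonal antibody against CTCF, once per genotype, so no difference between the peak lists has a replicate check.

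Before the results, some facts of these libraries bear on them. The Del8 list holds 15546 peaks called from 5.59 M tags, against 26729 GC peaks from 8.09 M tags. The calling thresholds were 8 tags in Del8 and 9 tags in GC, that is 14.3 tags per 10 M in Del8 and 11.1 in GC. The part of this gap in depth and threshold in the loss of peaks was not tested. In the RNA, Ctcf averaged 28.5 to 34.5 RPKM (reads per kilobase of transcript and 1 M reads) in the 3 d8 lines, against 5.93 RPKM in GC line 1 and 28.1 RPKM in GC line 2. Genes of chromosome 11 had a median log2 fold change of -0.40 in d8 over GC lines, against -0.0048 for all other genes, and 387 of its 1067 tested genes were called lower. The ES cell markers were all expressed (summed RPKM 1787 to 2107 in d8 lines and 1679 to 1970 in GC lines). Fibroblast or feeder cell markers summed to 90.6 to 135 RPKM in d8 lines, against 203 to 371 RPKM in GC lines, and their part in the results on nearest genes was not tested.

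Base sequence could be read only where a peak fell inside a 300-base RefSeq promoter window (build GRCm38.p6, which is mm10), since the files hold no sequence and no genome was used. That is a small and particular subset, because these lost peaks lie more than 1 kb from the starts of the expression table but close to a start of the promoter windows. The central 121 bases were covered in 9 lost peaks and 45 retained peaks. The letters CCNNNAGNNGGC, a stretch of the CTCF core motif with N for any base, were searched on both strands of the central 121 bases. They matched in 5 of 9 lost peaks (55.6%, exact binomial 95% interval 21.2 to 86.3) and in 22 of 45 retained peaks (48.9%, 33.7 to 64.2). The same search in the central 121 bases of each RefSeq promoter window matched 3.93% of 32851 windows. Among lost peaks the median GC base content of the central 121 bases was 53.7%, against 65.3% among retained peaks, and the median number of CpG dinucleotides was 4 against 10. The 9 lost peaks stood at ranks 2028 to 5177 and the 45 retained peaks at ranks 61 to 5217. The base content and CpG values therefore also compare peaks of different rank, and their difference was not tested. With 9 lost peaks these values can neither show nor exclude a difference in the core letters or in base content.

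The lost peaks whose whole width was covered are shown first, from high to low in the list, with the forward strand of the build from 5′ to 3′ and the core match in capitals. A match in the form GCCNNCTNNNGG is the same motif on the reverse strand.

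Lost peak at rank 2028 (chr19:57404271-57404503): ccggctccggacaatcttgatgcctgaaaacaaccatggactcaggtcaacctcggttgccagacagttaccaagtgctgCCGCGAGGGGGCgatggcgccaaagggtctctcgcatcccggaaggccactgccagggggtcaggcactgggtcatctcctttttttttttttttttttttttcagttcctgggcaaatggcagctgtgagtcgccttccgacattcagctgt
Lost peak at rank 3227 (chr5:143375279-143375511): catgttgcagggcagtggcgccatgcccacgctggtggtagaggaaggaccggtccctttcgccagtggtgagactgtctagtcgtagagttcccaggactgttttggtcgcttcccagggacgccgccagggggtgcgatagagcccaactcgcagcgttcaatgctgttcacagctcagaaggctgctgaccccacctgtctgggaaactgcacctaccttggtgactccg
Lost peak in Rasgrp2 at rank 3455 (chr19:6401506-6401738): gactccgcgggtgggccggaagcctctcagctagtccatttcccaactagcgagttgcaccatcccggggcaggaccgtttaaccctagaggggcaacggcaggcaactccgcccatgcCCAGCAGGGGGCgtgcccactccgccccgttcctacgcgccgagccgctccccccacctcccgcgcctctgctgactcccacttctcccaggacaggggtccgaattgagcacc
Lost peak upstream of Tbc1d7 at rank 4594 (chr13:43173324-43173556): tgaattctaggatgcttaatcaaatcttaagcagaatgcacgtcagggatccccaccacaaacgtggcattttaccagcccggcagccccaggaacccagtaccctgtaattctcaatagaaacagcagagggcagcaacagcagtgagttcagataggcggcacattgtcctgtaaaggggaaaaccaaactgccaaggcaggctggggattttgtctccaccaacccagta
Lost peak in Trpv2 at rank 5050 (chr11:62575385-62575617): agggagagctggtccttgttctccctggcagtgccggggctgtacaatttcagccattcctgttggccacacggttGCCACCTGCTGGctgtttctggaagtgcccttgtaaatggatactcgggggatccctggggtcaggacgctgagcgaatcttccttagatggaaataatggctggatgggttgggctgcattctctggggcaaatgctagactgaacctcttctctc

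Among the 13 retained peaks whose whole width was covered, those closest to these in rank are shown beside them. Ranks still differ, since the closest to the lost peak at rank 3455 was at rank 4343.

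Retained peak at rank 2025, in the promoter window of Dnmbp (chr19:43940198-43940430): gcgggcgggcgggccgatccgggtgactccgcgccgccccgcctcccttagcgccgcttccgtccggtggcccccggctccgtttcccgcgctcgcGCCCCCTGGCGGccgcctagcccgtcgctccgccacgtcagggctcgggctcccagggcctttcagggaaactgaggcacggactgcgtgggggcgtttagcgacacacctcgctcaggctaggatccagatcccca
Retained peak at rank 2552 (chr2:147256811-147257043): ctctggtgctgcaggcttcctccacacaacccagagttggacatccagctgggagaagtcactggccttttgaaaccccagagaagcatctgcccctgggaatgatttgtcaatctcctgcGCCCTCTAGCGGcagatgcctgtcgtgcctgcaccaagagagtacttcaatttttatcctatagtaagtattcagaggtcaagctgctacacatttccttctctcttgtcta
Retained peak at rank 4343, in the promoter window of Tdrd7 (chr4:45972095-45972327): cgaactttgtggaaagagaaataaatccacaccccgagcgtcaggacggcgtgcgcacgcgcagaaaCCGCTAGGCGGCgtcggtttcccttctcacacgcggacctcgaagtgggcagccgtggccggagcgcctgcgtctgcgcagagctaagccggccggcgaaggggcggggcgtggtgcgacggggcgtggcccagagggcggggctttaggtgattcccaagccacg
Retained peak at rank 4536, in the promoter window of Limk2 (chr11:3409219-3409451): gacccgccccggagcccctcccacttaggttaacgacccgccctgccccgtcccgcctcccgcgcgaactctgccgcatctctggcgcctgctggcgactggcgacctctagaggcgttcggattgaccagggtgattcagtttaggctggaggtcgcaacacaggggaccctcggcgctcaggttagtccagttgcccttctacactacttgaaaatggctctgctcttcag

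Of the 5 lost peaks shown, those at ranks 2028, 3455 and 5050 held the core letters, and of the 4 retained peaks shown, those at ranks 2025, 2552 and 4343 did. The lost peak upstream of Tbc1d7 had 50.2% GC bases and 4 CpG over its 233 bases, the fewest CpG of the lost peaks shown. The retained peak at rank 2025 had 74.2% GC bases and 31 CpG, the most of those shown. In the other direction, the retained peak at rank 2552 had 50.2% GC bases and 3 CpG, the fewest CpG of all peaks shown. The lost peak at rank 3455 had 67.8% GC bases and 18 CpG.

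Loss was less frequent at the top of the list than below it. Among distal peaks of the top 20% of the list, 26.2% had no Del8 peak (exact binomial 95% interval 24.9 to 27.5, covering counting error only), whereas 58% of all GC peaks had none. In the following steps of 20% the distal share lost was 44.1%, 60.9%, 75.4% and 86.9%. Peaks of the top 20% within 1 kb of a gene start were lost in 111 of 830 cases (13.4%, 11.1 to 15.9), less often than the distal ones. Because membership rests on the same 2 lists, these shares describe the choice and are not a test.

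**Figure D1:**
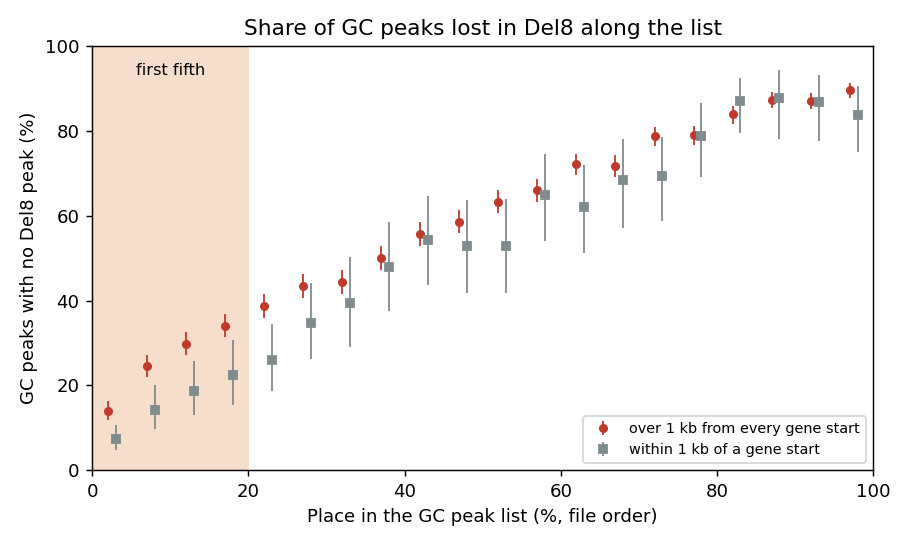
Share of GC peaks with no overlapping Del8 peak (y, percent) along the GC list (x, place in file order, percent) in steps of 5%, for distal peaks and for peaks within 1 kb of a gene start, with exact binomial 95% intervals. The distal share is 13.95% in the opening step and climbs through the shaded top 20%, and within that zone the peaks near starts lie below the distal ones.

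The gradient held inside the top 20% as well. When it was cut into 5 slices of equal length, the distal share lost was 12.3%, 21.8%, 27.4%, 31.5% and 34.7% from the top down. Lost peaks accordingly stood lower in the list, with a median rank of 3360.5 (95% interval 3254 to 3487) against 2611 (2525 to 2706) for retained peaks. Ranks of the lost peaks ran from 14 to 5343. Differences between lost and retained peaks given below therefore also compare peaks of different rank.

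The highest lost peaks were few. Of the 62 distal peaks among the leading 100 lines of the list, 3 were lost. The highest one, at rank 14 (chromosome 9, 3026549 to 3026781), lay in a group with 11 other GC peaks within 30 kb, of which 10 were retained, and a Del8 peak stood 481 bp away. The next lost peaks were at rank 40 (chromosome 8, 121751507 to 121751739) inside Jph3, a junctophilin that ties the plasma membrane to the endoplasmic reticulum, and at rank 48 (chromosome 5, 24530114 to 24530346), 3382 bp upstream of the homeobox gene Gbx1. They were followed by a peak at rank 112 (chromosome 8, 61539903 to 61540135) inside Palld, which encodes the actin-binding protein palladin. The last of these leading 5 was at rank 146 (chromosome 7, 142919275 to 142919507), 19425 bp upstream of Th, the tyrosine hydroxylase of catecholamine synthesis. In the last case the nearest Del8 peak was 88883 bp away, and at Jph3 it was 65989 bp away.

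Most of the leading 5 retained peaks lay farther from a gene start than the leading 5 lost peaks. The peaks at ranks 1 and 2 lay 4658 bp apart on chromosome 2 (98667001 to 98667233 and 98662343 to 98662575), 1199460 and 1194802 bp from the nearest start in the table, that of Lrrc4c. The next 3, at ranks 3, 4 and 5, were on chromosomes 9, 14 and 12, at 24340, 184764 and 125778 bp from a start. Of the 62 distal peaks in the leading 100 lines, 12 were over 100 kb from any start. The series also holds a Mock ChIP-seq library, which was not compared with any lost or retained peak. Whether the signal at these leading peaks comes from CTCF was therefore not tested.

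Values at the edges of the rule were as follows. The last lost peaks inside the top 20% were at ranks 5342 and 5343, near Tstd2 and Slc31a2, and the next ones outside it were at ranks 5348 and 5349, near Dmrta1 and Cyp2j5. At the distance limit, the members nearest to a start were 1015 bp from Trpv2 and 1016 bp from Tha1, and lost peaks just under the limit were 989 bp from Cabin1 and 956 bp from Dkk4. The members nearest to a Del8 peak were 249 and 250 bp from it, centre to centre. The retained peaks with the smallest overlap shared 12 and 19 bp with theirs.

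In location, a somewhat larger share of lost than of retained peaks lay inside gene bodies, with intervals that overlapped. Lost peaks lay inside an annotated gene body in 466 of 1182 cases (39.4%, 36.6 to 42.3) and retained peaks in 1187 of 3333 (35.6%, 33.99 to 37.3). Among peaks inside exactly 1 gene, the median place along the gene was 60.9% of its length for 457 lost peaks (57.2 to 64.4) and 63.1% for 1165 retained peaks (61.0 to 65.8). The genes concerned had a median length of 48.6 kb for lost peaks and 41.3 kb for retained peaks, with overlapping intervals (39.5 to 55.1 and 36.5 to 46.1). Relative to the nearest start, 48.7% of lost and 48.7% of retained peaks were upstream.

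The median distance to the nearest gene start was 17937.5 bp for lost peaks (16517 to 19256) and 16373 bp for retained peaks (15588 to 17349). Between 5 and 20 kb from a start lay 35.3% of lost and 39.1% of retained peaks, and between 20 and 100 kb 39.7% of lost and 36.9% of retained peaks. At the far end, 6.26% of lost and 6.001% of retained peaks were over 100 kb from any start. The member farthest from a start was at rank 5282 (chromosome 2, 48001819 to 48002051), 812174 bp upstream of Acvr2a, an activin receptor. Starts of the RefSeq promoter windows that the expression table lacks lay within 1 kb of 24 of 1148 lost peaks (2.09%, 1.34 to 3.09). For retained peaks the count was 119 of 3251 (3.66%, 3.04 to 4.36), both on the chromosomes the promoter windows cover. The expression table also holds RefSeq transcripts, and some of these starts are other starts of the same genes, as at Trpv2.

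**Figure D2:**
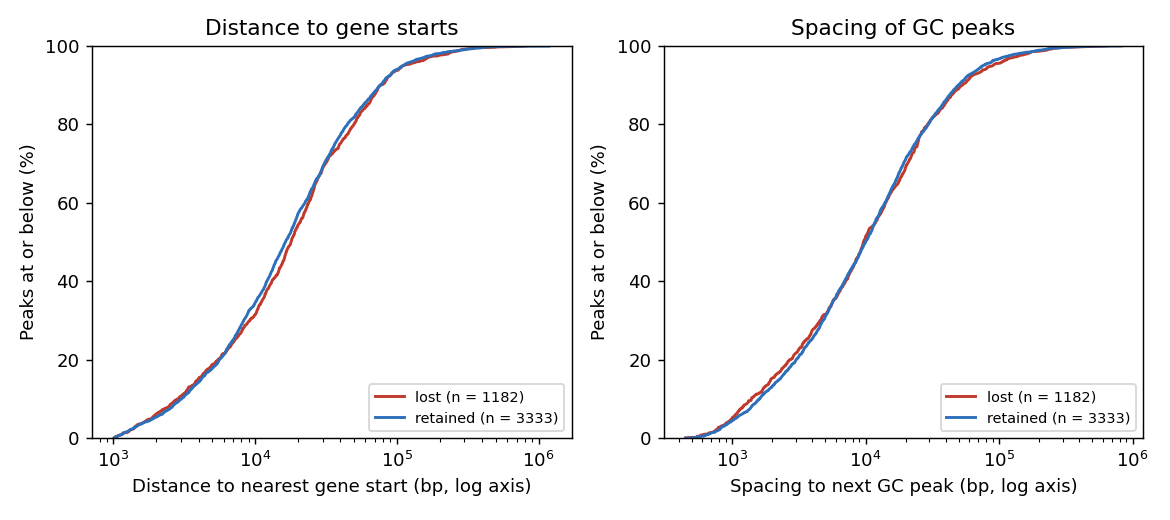
Cumulative share of peaks (y, percent) by distance to the nearest gene start (left panel, bp on a log axis) and by spacing to the next GC peak (right panel, bp on a log axis) for 1182 lost and 3333 retained peaks. Both pairs of curves nearly coincide, with medians of 17937.5 bp for lost and 16373 bp for retained peaks on the left and 9656.5 bp for lost and 10019 bp for retained peaks on the right.

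Spacing to other GC peaks was also alike in size. The median distance to the next GC peak was 9656.5 bp for lost peaks (9005 to 10530) and 10019 bp for retained peaks (9419 to 10620). Another GC peak stood within 2 kb of 15.3% of lost peaks (13.3 to 17.5) and of 13.3% of retained peaks (12.1 to 14.5), and within 10 kb of 51.2% of lost and 50.0% of retained peaks. The next GC peak was itself lost for 49.0% of lost peaks (46.1 to 51.9) and for 52.8% of retained peaks (51.1 to 54.5). Lost peaks thus did not have lost neighbours more often than retained peaks in these lists. Both flanking GC peaks were lost around 29.7% of lost and 30.7% of retained peaks. The most isolated member, at rank 576 (chromosome 8, 44026032 to 44026264), was 633107 bp from the next GC peak.

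Distances to Del8 peaks are given as a description, since the choice of members and the shorter Del8 list fix that Del8 peaks stand farther apart there. The interval between the Del8 peaks flanking a lost peak had a median of 114694 bp (n = 1181), and that between the flanking GC peaks a median of 61053 bp (n = 1182). The nearest Del8 peak was at a median of 15926.5 bp (13837 to 18867) and was over 100 kb away for 9.73% of members. For 60 members a Del8 peak stood within 1 kb without overlap, of which 35 overlapped another GC peak and 25 overlapped none. For 272 members (23.0%) the nearest Del8 peak overlapped no GC peak.

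Lost peaks were spread over all chromosomes with some unevenness. Chromosome 8 held 152 lost and 350 retained peaks, a share lost of 30.3% (26.3 to 34.5), and 12.9% of all lost and 10.5% of all retained peaks. It also had the largest high-ranked distal share of its GC peaks among the autosomes, 26.8%, against 13.1 to 19.3% for the others. Chromosome 14 had the lowest share lost of the autosomes, with 27 lost and 116 retained peaks, or 18.9% (12.8 to 26.3). On the X chromosome 2 high-ranked distal peaks were lost and 8 retained.

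Some stretches held several lost peaks. The 1 Mb window with the most, 14 lost and 12 retained, was on chromosome 8 (120000001 to 121000000) and contained 21 Del8 peaks and 49 GC peaks in all. The nearest genes there were Gse1, Gins2, Irf8, a transcription factor of myeloid cells, Cox4i1, a cytochrome c oxidase subunit, Zdhhc7, a palmitoyltransferase, and A330074K22Rik. Next came chromosome 10 (81000001 to 82000000) with 11 lost and 6 retained peaks, near genes that included the G protein subunits Gna11 and Gna15. When high-ranked distal peaks were read in order along each chromosome, 687 of the lost ones had no lost neighbour in that sequence, 156 pairs stood together, and 42 runs of 3, 13 runs of 4 and 1 run of 5 occurred. The run of 5 spanned chromosome 13 (104939893 to 108797943) near Pde4d, a cyclic AMP phosphodiesterase, and Ndufaf2, an assembly factor of respiratory complex I, and 12 Del8 peaks and 27 GC peaks of any rank lay in that span.

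The 5 genes nearest to the most lost peaks were Gins2 with 4, and Arhgef16, Hjurp, Jph3 and Tmem132b with 3 each. In all, 964 genes were nearest to 1 lost peak within 100 kb, 64 to 2, 4 to 3 and 1 to 4. Gins2 encodes a subunit of the replicative helicase. Its lost peaks lay 7096, 5770 and 19045 bp upstream and 18572 bp downstream of its start, the last inside Gse1 on the other strand. Gins2 had 43.1 to 58.6 RPKM in d8 libraries (median 46.6), against 44.1 to 61.3 RPKM in GC libraries (median 49.0). The ranges overlapped almost fully, and the log2 fold change was -0.07 ± 0.10 SE (adjusted p = 0.72 by limma). Gse1 averaged 31.7 RPKM in d8 lines, against 23.3 RPKM in GC lines, and was called higher (log2 fold change 0.43, adjusted p = 0.048 by limma). It overlaps Gins2 and no strand was set in counting, so reads may be shared.

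Hjurp encodes the chaperone that loads the centromeric histone CENP-A, and its lost peaks formed a group 7504, 10178 and 12540 bp upstream of its start. Hjurp had 23.2 to 28.1 RPKM in d8 libraries (median 25.5), against 23.3 to 26.1 RPKM in GC libraries (median 24.0), again overlapping (log2 fold change 0.06 ± 0.08 SE, adjusted p = 0.68 by limma). The annotation also holds transcripts of A730008H23Rik and 6430706D22Rik on the same strand there, so reads may be shared. Arhgef16, a guanine nucleotide exchange factor with lost peaks 1885 bp upstream and 26688 and 53242 bp downstream, had 9.56 to 17.7 RPKM in d8 libraries (median 13.3), against 6.68 to 12.2 RPKM in GC libraries (median 9.04). The limma threshold was not reached (log2 fold change 0.48 ± 0.13 SE, adjusted p = 0.066 by limma).

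Jph3, with lost peaks 35854 and 12503 bp upstream and 21064 bp downstream of its start, had 0.557 to 2.60 RPKM in d8 libraries (median 1.68), against 0.369 to 2.08 RPKM in GC libraries (median 1.55). It was not called (log2 fold change 0.21 ± 0.22 SE, adjusted p = 0.59 by limma). Tmem132b was too low to test, with at most 0.142 RPKM in d8 libraries and 0.060 RPKM in GC libraries. Of these 5 genes 4 were tested and none was called by limma (1 at an unadjusted p under 0.05), where 5.74% of all tested genes were called lower and 3.02% higher in d8.

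**Figure D3:**
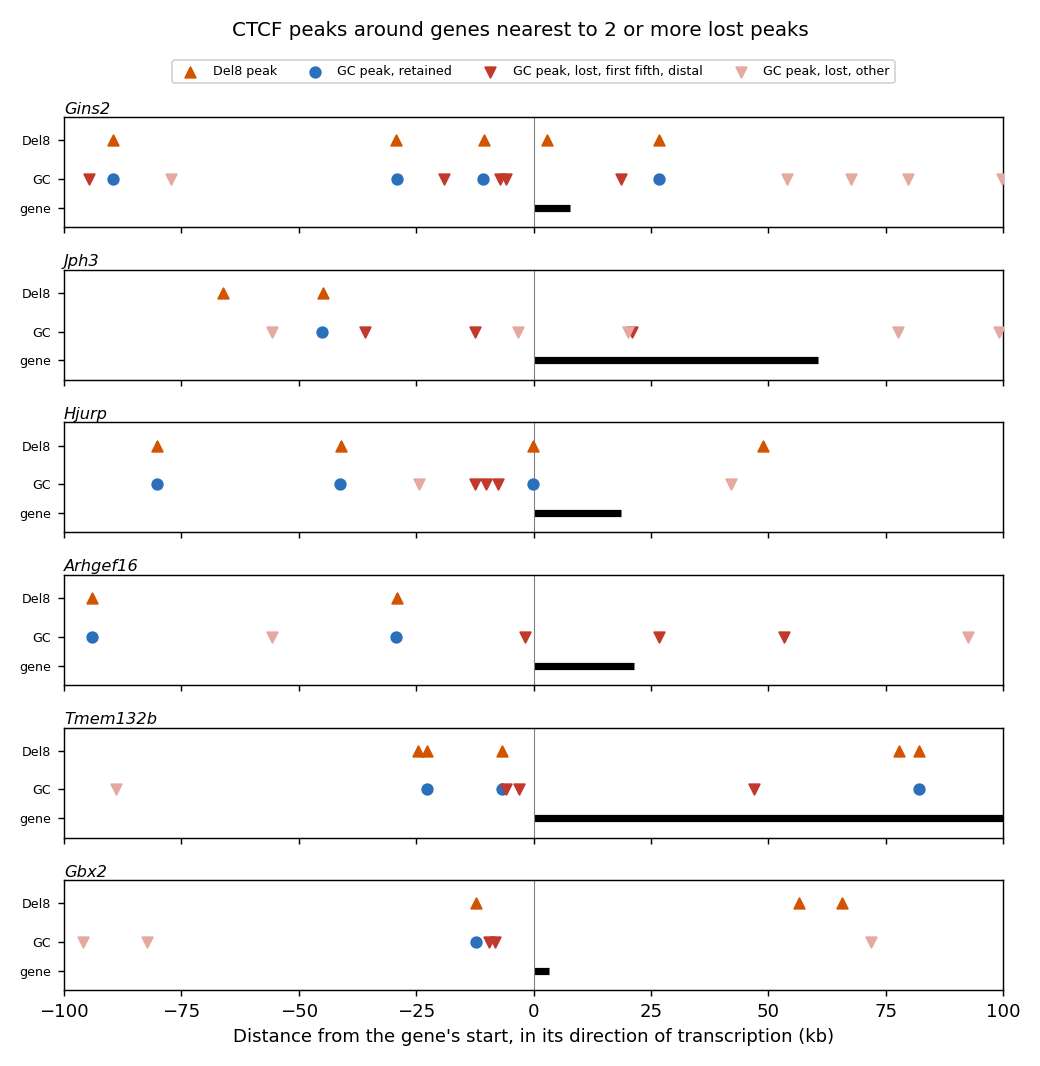
Del8 peaks (upper row of each panel) and GC peaks (middle row) within 100 kb of the start of 6 genes, with the gene as a black bar and distance from the start in kb on x, oriented along transcription. The 5 genes nearest to the most lost peaks and Gbx2, with 2, are shown, and the lost high-ranked distal peaks of Hjurp stand close together between a retained peak at its start and one farther upstream, while those of Gbx2 lie between its start and a retained peak.

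Gene expression was then compared between d8 and GC lines over all genes. Library values were averaged per line on a log2(RPKM + 1) scale, and limma tested the 12468 genes that averaged 1 RPKM or more in d8 or in GC lines. The fold changes on this scale understate those of low genes. Within 100 kb, 1033 genes were nearest to at least 1 lost peak, and 620 of them were tested. Of these 620, 23 were higher (3.71%) and 40 were lower in d8 (6.45%). Among the 1630 tested genes nearest to a retained peak, 67 were higher (4.11%) and 108 lower (6.63%). Over all tested genes, 3.02% were called higher and 5.74% lower. The shares of genes nearest to lost peaks were thus close to both the retained peaks and the background. Without GC line 1, the line low in Ctcf, limma called 0 of these genes higher and 0 lower (62 higher and 102 lower at an unadjusted p under 0.05), out of 27 calls in all.

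The genes split by what surrounds them gave a like picture. Of 450 tested genes nearest to lost peaks only, 16 were higher and 31 lower. Of 170 nearest to both kinds, 7 were higher and 9 lower, and of 1460 nearest to retained peaks only, 60 were higher and 99 lower. The median log2 fold change was -0.03 for genes nearest to a lost peak, -0.01 for genes nearest to a retained peak and -0.02 for all tested genes. The median absolute log2 fold change was 0.19 for genes nearest to a lost peak, 0.19 for genes nearest to a retained peak and 0.17 for all tested genes. The tested genes nearest to a lost peak had a median of 9.67 RPKM in d8 and 9.71 RPKM in GC lines, against 9.89 RPKM in d8 and 10.1 RPKM in GC lines over all tested genes.

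Chromosome 11 carried most of the lower calls. Without its genes, 23 of 554 tested genes nearest to a lost peak were higher (4.15%) and 15 lower (2.71%), and 66 of 1468 nearest to a retained peak were higher (4.50%) and 56 lower (3.81%). The background off chromosome 11 was 3.28% higher and 2.89% lower. The higher calls near lost peaks were therefore all off chromosome 11, whereas the lower calls went to 15 in place of 40.

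**Figure D4:**
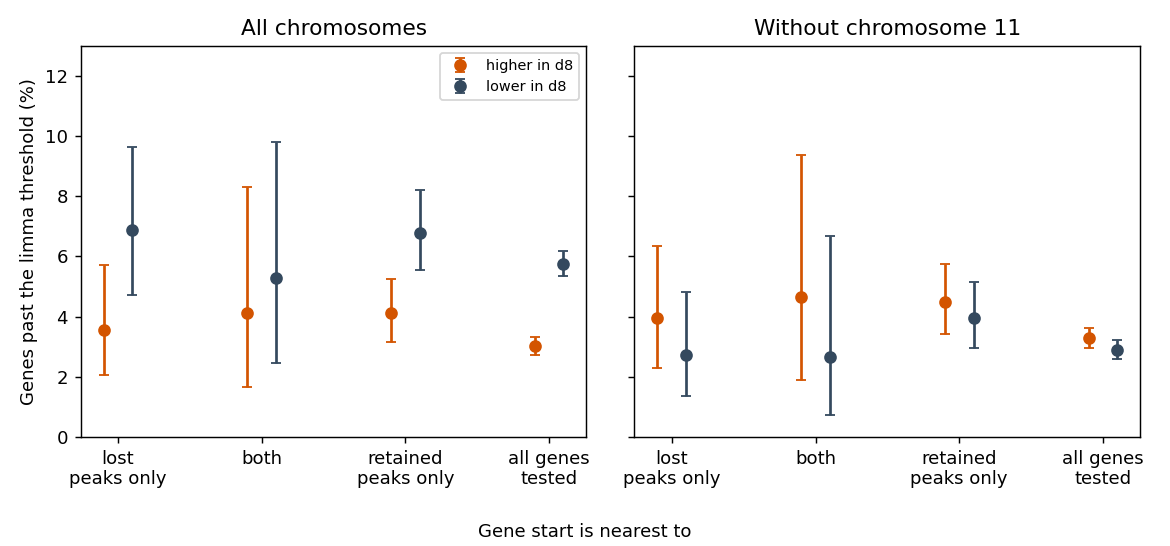
Percent of tested genes that limma called higher or lower in d8 (y) for genes nearest to lost peaks only, to both kinds, to retained peaks only, and for all tested genes (x), with exact binomial 95% intervals, for all chromosomes (left) and without chromosome 11 (right). The intervals of the lost, both and retained groups overlap, and the lower share of genes nearest to lost peaks only is 6.89% on the left and 2.72% on the right.

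Distance to the peak and presence inside the gene body were also read out. Genes whose start lay 1 to 5 kb from a lost peak had 2 higher (1.34%) and 12 lower (8.05%) calls among 149 tested, and those 1 to 5 kb from a retained peak had 12 higher (3.37%) and 35 lower (9.83%) among 356. At 5 to 20 kb the calls were 8 higher (3.36%) and 14 lower (5.88%) of 238 for lost peaks and 26 higher (3.63%) and 47 lower (6.56%) of 717 for retained peaks. At 20 to 100 kb they were 13 higher (5.18%) and 14 lower (5.58%) of 251 for lost peaks and 33 higher (4.98%) and 34 lower (5.13%) of 663 for retained peaks. Over all tested genes the shares were 3.02% higher and 5.74% lower. For lost peaks the higher share lay below 3.02% in the nearest class, near it in the middle and above it in the farthest. The higher share for retained peaks rose with distance as well, and the lost shares rest on 2, 8 and 13 genes. Of 288 tested genes with a lost peak inside their body, 17 were higher (5.90%, 3.48 to 9.28) and 18 lower (6.25%, 3.75 to 9.70), against 30 higher (4.34%, 2.95 to 6.14) and 37 lower (5.35%) of 691 with a retained peak inside. The higher shares of genes holding a lost peak and of genes holding a retained peak both stood above the 3.02% of all tested genes. Their intervals overlapped, and these cover counting error only, with genes of the same lines taken as independent. Off chromosome 11 the higher share was 17 of 258 genes holding a lost peak (6.59%, 3.88 to 10.3). There it was 30 of 623 genes holding a retained peak (4.82%, 3.27 to 6.80) and 3.28% of all genes tested. Dropping d8 line 3 left 7 higher calls by limma among all tested genes, against 376 with every line kept. A fit on fewer lines also has less power, so such counts cannot show whether these shares depend on a given line. The gene body shares were not recomputed with a line left out. Genes can fall in more than 1 of these groups, and no difference between the groups was tested.

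The authors' deposited table compares del8 with control cells in libraries that match no sample used here. It lists 1280 genes, of which 5.14% of the genes tested here appear as higher in del8 and 4.8% as lower. In the authors' deposited table, 27 of the 620 genes nearest to a lost peak were higher (4.35%) and 33 lower (5.32%). Of the 1630 genes nearest to a retained peak, the authors' deposited table lists 115 as higher (7.06%) and 91 as lower (5.58%). The fewer higher entries near lost than near retained peaks in that table stand beside limma shares of 3.71% near lost and 4.11% near retained peaks, and this difference was not tested.

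Named genes were those nearest to a lost peak that passed the threshold without overlap of line means and with at least 2 RPKM in the higher genotype, 59 in all with 20 higher and 39 lower in d8. This rule was not counted over other genes. Calls before it were 3.71% higher and 6.45% lower near lost peaks, against 3.02% and 5.74% of all tested genes. Non-overlap of line means was part of the choice, so gaps between d8 and GC libraries given below are no separate support. The 8 highest fold changes were in Fgfr4, Kcng3, Arhgef19, Gbx2, Cbx7, Lrp3, Gja1 and Alyref2, none on chromosome 11. The 8 lowest were in Zbtb39, Tbc1d7, Tspan9, Gprc5a, Itgb3, Mir7652, Gstm6 and Rasgrp2, of which Itgb3 and Mir7652 lie on chromosome 11. Of the 16 genes, Gbx2, Cbx7, Lrp3, Itgb3 and Gstm6 were each also nearest to 1 retained peak. With no filter on low values 6 of the 16 passed limma at 0.05, without d8 line 1 5 passed, and without d8 line 2 11 passed. Gbx2, Lrp3, Alyref2, Tspan9 and Rasgrp2 did not pass with any 1 of the d8 lines left out. Without GC line 1 or without d8 line 3 none of these 16 passed limma at 0.05, although all kept their direction (adjusted p from 0.053 to 0.16 without GC line 1 and from 0.054 to 0.11 without d8 line 3).

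Fgfr4, a receptor of fibroblast growth factors (chromosome 13, 55152818 to 55168759), had its lost peak 25953 bp downstream of its start. It had 1.78 to 4.19 RPKM in d8 libraries (median 2.73), against 0.422 to 0.837 RPKM in GC libraries (median 0.516), with no overlap (log2 fold change 1.30 ± 0.20 SE, adjusted p = 0.021 by limma). The authors' deposited table also lists Fgfr4 as higher, with a log2 fold change of 1.79.

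Kcng3, a modifier subunit of voltage-gated potassium channels (chromosome 17, 83585957 to 83631895), had its lost peak 5697 bp upstream, with a Del8 peak 1605 bp from it. It had 1.65 to 2.56 RPKM in d8 libraries (median 2.20), against 0.360 to 0.763 RPKM in GC libraries (median 0.462), and the groups did not overlap (log2 fold change 1.07 ± 0.12 SE, adjusted p = 0.015 by limma). Arhgef19, a guanine nucleotide exchange factor (chromosome 4, 141242884 to 141257562), had its lost peak 14729 bp downstream, at the end of the gene. It had 4.36 to 6.02 RPKM in d8 libraries (median 4.61), against 1.30 to 2.31 RPKM in GC libraries (median 1.84), also without overlap (log2 fold change 1.06 ± 0.11 SE, adjusted p = 0.012 by limma). In the authors' deposited table Kcng3 and Arhgef19 are listed as higher too (2.14 and 1.61).

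Gbx2, a homeobox transcription factor that can sustain self-renewal of mouse ES cells (chromosome 1, 89927962 to 89931176), had lost peaks 8256 and 9397 bp upstream. It had 3.30 to 6.34 RPKM in d8 libraries (median 3.57), against 1.19 to 2.41 RPKM in GC libraries (median 1.93), with no overlap (log2 fold change 0.73 ± 0.14 SE, adjusted p = 0.029 by limma). The lost pair lay between the gene and a retained peak, and the nearest Del8 peak was 2802 bp beyond the outer one. Cbx7, a chromodomain subunit of Polycomb repressive complex 1 (chromosome 15, 79915807 to 79932646), had 82.7 to 115 RPKM in d8 libraries (median 101), against 54.4 to 68.7 RPKM in GC libraries (median 59.4). All d8 values exceeded all GC values (log2 fold change 0.71 ± 0.11 SE, adjusted p = 0.021 by limma), and the lost peak was 8469 bp upstream.

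Gja1, which encodes the gap junction protein connexin 43 (chromosome 10, 56377300 to 56390419), was the most abundant of the 16. It had 192 to 284 RPKM in d8 libraries (median 254), against 105 to 188 RPKM in GC libraries (median 173), with the lowest d8 value just above the highest GC value. Its log2 fold change was 0.66 ± 0.12 SE (adjusted p = 0.029 by limma) and its lost peak, at rank 860, stood 37989 bp upstream. The other higher genes were Lrp3, a member of the low-density lipoprotein receptor family (log2 fold change 0.68, limma adjusted p = 0.044), and Alyref2, an mRNA export factor (0.66, limma adjusted p = 0.027). The d8 and GC libraries of Lrp3 overlapped between 2.10 and 2.41 RPKM, and those of Alyref2 did not overlap.

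Among the lower genes, Zbtb39, a zinc finger protein of the BTB family (chromosome 10, 127739538 to 127747339), had the largest fall. It had 0.377 to 0.855 RPKM in d8 libraries (median 0.623), against 3.02 to 4.94 RPKM in GC libraries (median 3.31), with no overlap (log2 fold change -1.501 ± 0.15 SE, adjusted p = 0.012 by limma). Its lost peak was 1323 bp upstream, at rank 3335, with a Del8 peak 1136 bp from it. The authors' deposited table lists Zbtb39 at -2.88.

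Tbc1d7, a subunit of the tuberous sclerosis complex that restrains mTORC1 (chromosome 13, 43151742 to 43171501), had its lost peak 1939 bp upstream, the sequence of which is printed above. It had 1.90 to 3.81 RPKM in d8 libraries (median 2.73), against 7.40 to 9.46 RPKM in GC libraries (median 8.05), without overlap (log2 fold change -1.30 ± 0.16 SE, adjusted p = 0.016 by limma). The authors' deposited table lists Tbc1d7 at -1.51.

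Tspan9, a tetraspanin (chromosome 6, 127961396 to 128143578), had a lost peak inside its body, 51879 bp downstream of its start. It had 6.40 to 12.2 RPKM in d8 libraries (median 10.3), against 15.2 to 54.0 RPKM in GC libraries (median 24.8), with no overlap but a wide GC range (log2 fold change -1.30 ± 0.25 SE, adjusted p = 0.032 by limma). The authors' deposited table gives Tspan9 the opposite sign, 0.71. Gprc5a, an orphan G protein-coupled receptor induced by retinoic acid (chromosome 6, 135065662 to 135084708), had 4.81 to 8.59 RPKM in d8 libraries (median 6.36), against 12.8 to 37.2 RPKM in GC libraries (median 15.0), without overlap (log2 fold change -1.29 ± 0.20 SE, adjusted p = 0.020 by limma). Its lost peak stood at rank 1236, 22255 bp downstream.

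Rasgrp2, an exchange factor of the small GTPase Rap1 (chromosome 19, 6400583 to 6415216), held a lost peak 1039 bp into the gene, which carries the core letters as printed above. It had 8.09 to 15.7 RPKM in d8 libraries (median 11.3), against 12.4 to 27.9 RPKM in GC libraries (median 20.5), and the ranges overlapped (log2 fold change -0.82 ± 0.19 SE, adjusted p = 0.045 by limma). Gstm6, a glutathione S-transferase (chromosome 3, 107938848 to 107943749), had a lost peak at rank 837 inside its body, 0.434 to 1.73 RPKM in d8 libraries (median 1.36), and 2.46 to 3.91 RPKM in GC libraries (median 3.65). It belongs to a family of near-identical genes, so its reads are uncertain (log2 fold change -0.93 ± 0.15 SE, adjusted p = 0.023 by limma).

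On chromosome 11, Itgb3, the beta 3 chain of integrins, had a log2 fold change of -1.12 and Mir7652 one of -1.01 (limma adjusted p = 0.018 and 0.016). Their lost peaks lay 40724 bp into Itgb3 and, for Mir7652, inside Glra1, a glycine receptor subunit. The table's entry for Mir7652 is 55 bases long, so its RPKM rests on few reads. Both values stand on a chromosome whose tested genes had a median of -0.40.

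**Figure D5:**
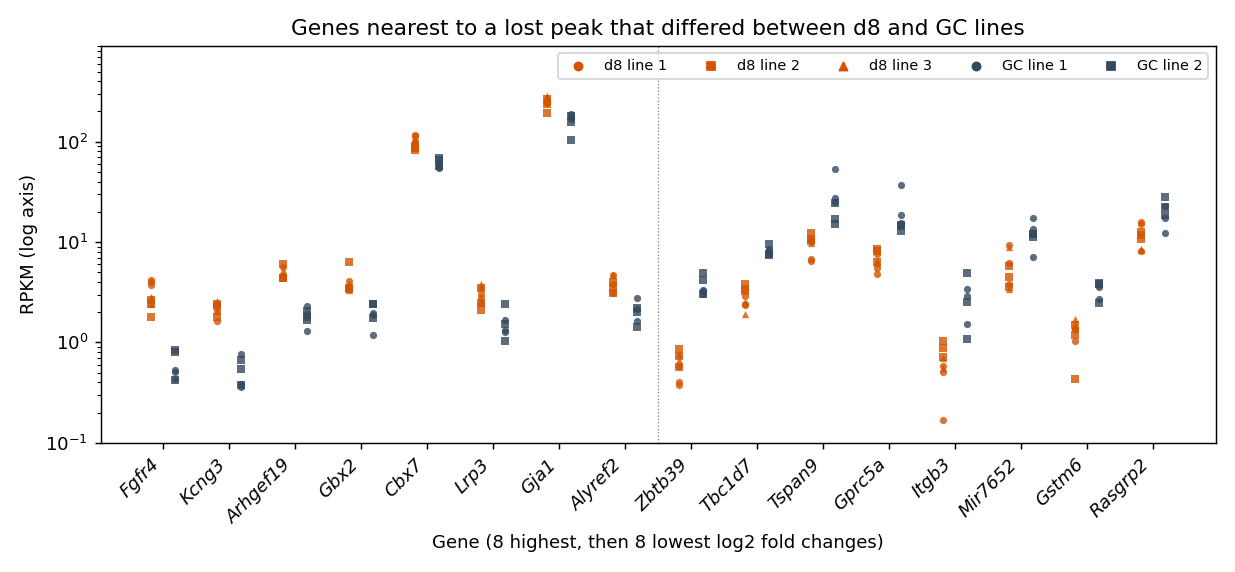
RPKM (y, log axis) in each library for the 8 highest and the 8 lowest fold changes among genes nearest to a lost peak (x), with d8 libraries left of GC libraries and a marker for each line. All 8 d8 values lie above all 6 GC values for Fgfr4, Kcng3, Arhgef19, Gbx2, Cbx7, Gja1 and Alyref2, and below them for Zbtb39, Tbc1d7, Tspan9, Gprc5a, Itgb3 and Gstm6.

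Of 56 genes in the marker, CTCF and cohesin lists, 3 were nearest to a lost peak (5.36%), against 1033 of all 24940 genes (4.14%). Of 10 ES cell markers, Klf4 was nearest to a lost peak, Tdgf1, a co-receptor of Nodal, was called higher and Nanog, a pluripotency factor, lower. Of 8 fibroblast or feeder cell markers, all tested, Thy1 was nearest to a lost peak. Limma called 5 of the 8 lower, against 5.74% of all tested genes, and 8 had an unadjusted p under 0.05. Among the 5 were Acta2 and Col1a1 (0.897 ± 0.527 RPKM in d8 and 11.8 ± 4.91 RPKM in GC, SD over 3 and 2 lines). Col1a1 lies on chromosome 11, where limma called 387 of 1067 tested genes lower. Tubb3, a neuronal tubulin, was the only one of 6 neuroectoderm markers nearest to a lost peak, 4534 bp from its start, and 0 of the 4 tested were called by limma (3 at an unadjusted p under 0.05). None of 8 primitive endoderm, 8 trophoblast and 16 CTCF and cohesin genes was nearest to a lost peak. Of these, Gata4, a primitive endoderm transcription factor, and Stag2, a cohesin subunit, were called higher, and Tfap2c, a trophoblast transcription factor, lower, of 6, 15 and 7 tested genes in these lists. With 1 line left out in turn, limma did not call Nanog, Stag2, Tfap2c and S100a4, a calcium-binding protein of the fibroblast list, in any of 5 fits (adjusted p for Nanog from 0.052 to 0.098). In the same 5 fits the call of Tdgf1 was lost in 4 (limma adjusted p from 0.037 to 0.10), that of Gata4 in 2, of Acta2 in 2 and of Col1a1 in 1.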

How the data were processed

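Per the file headers, the authors called peaks with HOMER findPeaks from 1 library per genotype at a false discovery rate of 0.001, at least 4-fold over the surrounding 10000 bp, and deposited a constant score per peak. Peaks are 247 bp wide in Del8 and 233 bp in GC. The list order followed the number in the peak name (Spearman correlation 0.962 to 0.992 over 20 chromosomes). The coordinates were taken as mm10. RPKM values over exons of mm10 RefSeq transcripts were deposited, with HOMER analyzeRepeats and no strand setting per the file headers, so overlapping genes cannot be told apart. The steps of the low values gave an estimated 14.3 to 16.7 M reads per library. Reads were 36 bp (ChIP) and 50 bp (RNA), per the labels. The submitters' processing notes also name HISAT2, Bowtie, SAMtools, deepTools and DESeq2, without versions. The authors' deposited table of log2 fold changes, p-values and adjusted p-values for del8 and control matched by identifier or symbol, and 273 of 280 genes also called here had the same sign as d8 over GC. Its 5 columns of per-library values match no sample and were not used.

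Here peaks were joined by overlap and by distance of centres to gene starts. The nearest gene is the one with the nearest start within 100 kb. Log2(RPKM + 1) values, averaged per line since libraries of a line may be technical replicates, were tested with limma 3.58.1 (R 4.3.3, trend, two-sided, Benjamini-Hochberg adjustment, threshold 0.05), after a check on simulated data. Intervals are 95%, exact binomial or of order statistics. The members, lists and naming rule (above) were chosen with earlier results of these data known. The other 6 ChIP and 10 Med-Seq samples were not analysed here. Alternatives changed the list share, distance, overlap, filter, pseudocount, lines and blocks.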

Additional observations from a re-analysis of the deposited data

Results flagged for a closer look

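The genes searched were those chosen by the naming rule and its gene lists. They add the primitive endoderm collagen Col4a1 and the cohesin regulator Cdca5 to those described above. In 68 sets of libraries of 1 genotype, a single library far from the rest was sought, and 11 such values were found. Chance gives about 1 in 20 sets only for independent libraries. Here libraries belong to lines and the same library recurs across genes, so the 11 values cannot be set against that rate. In d8 libraries, sample 2B had 6.34 RPKM of Gbx2 (others 3.30 to 4.09), 33.1 RPKM of Acta2 (others 12.3 to 18.1) and 71.5 RPKM of Tubb3 (others 41.8 to 49.8), and sample 1C had 23.2 RPKM of Ctcf (others 30.8 to 37.2). In GC libraries, sample 1B had 54.0 RPKM of Tspan9 (others 15.2 to 27.4), 37.2 RPKM of Gprc5a (others 12.8 to 18.4), 71.3 RPKM of Col4a1 (others 20.8 to 34.8) and 165 RPKM of Acta2 (others 36.7 to 71.8). GC sample 2C had 105 RPKM of Gja1 (others 157 to 188) and 28.0 RPKM of Col1a1 (others 5.82 to 12.3), and GC sample 1C had 78.5 RPKM of Cdca5 (others 55.2 to 63.7). The fold changes of Tspan9 and Gprc5a rest in part on GC sample 1B, yet the other GC values of both genes also exceed every d8 value.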

How the results depend on the processing

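The share of high-ranked distal peaks lost (26.2%) was 19.6% in the first 10% of the list, 31.4% in the first 30% and 27.9% when 50% of the GC peak had to be overlapped. Inside gene bodies lay 42.4% of lost and 37.2% of retained peaks in the first 30%, and 39.5% of lost and 33.6% of retained peaks beyond 5 kb, wider gaps than the 39.4% and 35.6% reported. The median distance to a start became 19322.5 bp for lost and 17901 bp for retained peaks beyond 2 kb, 23429 bp for lost and 21577 bp for retained peaks beyond 5 kb, and 14817 bp for retained peaks in the first 10%. The median spacing was 8880.5 bp for lost and 9423 bp for retained peaks in the first 10%, and 10586 bp for lost and 10290 bp for retained peaks in the first 30%, where the order turned round.

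The 1092 limma calls numbered 290 with no filter, 368 without chromosome 11 in the test, 2545 in a fit of single libraries that takes the line as random and 27 to 577 with 1 line left out. Calls near lost peaks (23 higher, 40 lower) were 6 and 12 with no filter (0.62% and 1.23%, against 0.35% and 1.04% of all tested genes). They were 13 and 8 without chromosome 11 (2.35% and 1.44%, against 1.65% and 1.58%). With the line as random they were 57 and 78 (9.19% and 12.6%, against 8.33% and 12.1%). At a filter of 5 RPKM they were 15 and 43 (3.61% and 10.3%, against 3.47% and 7.28%, and 5.52% and 8.37% near retained peaks, a difference not tested). In the reported fit they were 10 and 26 within 20 kb (2.62% and 6.81%, against 3.02% and 5.74%) and 8 and 18 for the first 10%, whose shares were not counted. With 1 line left out they ranged from 0 to 14 and from 0 to 20, and limma gave 0 and 0 without GC line 1 and without d8 line 3 (61 higher and 92 lower at an unadjusted p under 0.05 without d8 line 3). With the line number as a replicate block on line means they were 0 and 0 (17 calls in all, and 61 and 92 at an unadjusted p under 0.05), and with the full sample number as a replicate block 65 and 94 (2935 in all). For a look at pairing, the deviation of each library from the mean of its genotype was taken per gene. These deviations correlated between -0.19 and 0.075 for same-numbered d8 and GC libraries. They gave no sign of pairing by number, but they also carry differences between lines and do not settle it. With 1 line left out, the log2 fold change of Col4a1 ranged from -0.24 (without d8 line 2) to 0.79, and that of Krt8 from -0.86 to 0.028 (without d8 line 1). Of 12 alternatives each, the call was lost in 7 for Nanog, 6 for Tdgf1 and 3 for Acta2. Ctcf, not called as reported, passed in 3 of 12 (without GC line 2 with a log2 fold change of 2.24 and a limma adjusted p of 0.021, with the line as random and with the full sample number as a block), and Arhgef16 passed in 1 (limma adjusted p = 0.0096 with the full sample number as a block), as did Krt18, Nes and Rad21 in 1 each and Tubb3 in 2. The cause of these moves was not tested. With 1 ChIP library per genotype, and the Del8 library the shallower one, a peak near the calling threshold can be missed in Del8, which limits all lost shares.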
